A study of Mus musculus with 24 samples.

Results

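The genes described here are 8 transcripts that type I interferon is known to induce, Ifit1, Ifit2, Ifit3, Irf7, Oasl2, Rsad2, Usp18 and Ifi44. They were taken by gene name from a whole-genome oligonucleotide array, which held 13 probes for them among the 41174 probes (27962 gene names) tested, and for each gene the probe with the highest mean intensity over all arrays served as its main probe. All samples came from 12 female C57BL/6 mice aged 12 weeks, whose dams were fed a fat-rich pelleted diet with little selenium and folate (HF-low) from 7 days before mating to the end of lactation. At weaning, at about 28 days, 6 offspring stayed on that diet (HF-low-low) and 6 were moved to one with the same fat but enough of both nutrients (HF-low-suf). Whole liver and whole colon of every mouse were each hybridised to a separate array, which gave 4 groups of 6 arrays. All mice were wild type and share the fat-rich diet and the low maternal supply, no group is labelled as treated with interferon or infected, and the litter of each mouse is not stated in the labels. The comparisons ask whether the post-weaning supply of selenium and folate altered these transcripts in either tissue, how liver and colon differed, and whether the liver and colon of 1 mouse moved together.

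Type I interferons bind a shared receptor and act through the kinases JAK1 and TYK2 and transcription factors that include STAT2 and IRF9 on a DNA element, the interferon-stimulated response element, in front of many antiviral genes. Most of the proteins made from these genes restrict viruses, some amplify the signal and some end it. Without infection many tissues keep a low, continuous expression of the set.

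For 7 of the 8 genes, all but Usp18, RefSeq (GRCm38.p6) gave a window from 250 bases before to 50 bases after the start of transcription. The windows were searched on both strands for the core of the response element, written TTTCNNTTTC on one strand and GAAANNGAAA on the other, where N is any base. The motif was present in 3 of the 7 genes, Ifit1, Ifit3 and Rsad2, and in 3.99% of the 27025 genes with a window. It was present in 12 of 24 other type I interferon-stimulated genes with a window. The windows of these 3 genes are shown because 2 of them, Ifit3 and Rsad2, were among the members that differed most between tissues and the other, Ifit1, was not called. Capitals mark the motif, and each window is on the strand of its gene.
Ifit1 (chr19:34640639-34640938, plus strand): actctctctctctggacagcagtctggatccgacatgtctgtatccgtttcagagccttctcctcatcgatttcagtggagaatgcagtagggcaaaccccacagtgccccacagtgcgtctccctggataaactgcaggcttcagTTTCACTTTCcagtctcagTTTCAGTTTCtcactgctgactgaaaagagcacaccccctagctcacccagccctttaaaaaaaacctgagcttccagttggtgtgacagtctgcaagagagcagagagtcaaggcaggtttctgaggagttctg
Ifit3 (chr19:34583279-34583578, plus strand): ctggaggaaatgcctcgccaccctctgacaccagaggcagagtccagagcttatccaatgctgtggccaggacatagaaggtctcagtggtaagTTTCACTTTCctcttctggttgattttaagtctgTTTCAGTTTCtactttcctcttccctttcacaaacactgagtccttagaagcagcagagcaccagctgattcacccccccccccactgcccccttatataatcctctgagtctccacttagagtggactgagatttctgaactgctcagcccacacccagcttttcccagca
Rsad2 (chr12:26456403-26456702, minus strand): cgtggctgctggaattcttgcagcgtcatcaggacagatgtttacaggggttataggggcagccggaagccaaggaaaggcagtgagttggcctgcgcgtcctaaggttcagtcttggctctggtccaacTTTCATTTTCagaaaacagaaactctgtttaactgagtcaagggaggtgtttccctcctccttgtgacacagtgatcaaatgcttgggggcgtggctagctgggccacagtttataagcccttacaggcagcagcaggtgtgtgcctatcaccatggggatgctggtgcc
The motif began 104 and 85 bases before the start in Ifit1, 156 and 122 bases before it in Ifit3, and 120 bases before it in Rsad2. A match describes the letters only, and no binding was measured here.

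The array probes are 60 bases long and the files place them on build mm7, whose positions cannot be set against those above. The Irf7 probe and probes 2 and 3 of Rsad2 are shown because their positions on the genome span more than their own length, so that each bridges an intron and reports spliced RNA.
Irf7, main probe (chr7:137682028-137682378, minus strand, a span of 351 bases): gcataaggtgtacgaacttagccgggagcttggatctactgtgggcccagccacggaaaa
Rsad2, probe 2 (chr12:24286540-24289841, minus strand, a span of 3302 bases): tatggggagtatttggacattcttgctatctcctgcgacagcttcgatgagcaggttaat
Rsad2, probe 3 (chr12:24281379-24284417, minus strand, a span of 3039 bases): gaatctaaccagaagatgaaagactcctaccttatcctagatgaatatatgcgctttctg
The main probes of the other genes lay at chr19:34350610-34350669 (Ifit1), chr19:34277058-34277117 (Ifit2), chr19:34289919-34289978 (Ifit3), chr5:114132992-114133051 (Oasl2), chr12:24278814-24278873 (Rsad2), chr6:121295796-121295855 (Usp18) and chr3:151631285-151631344 (Ifi44). The second probe named Ifit3 lay 23968 bases from the first. Ifit3b, a close copy of Ifit3, lies in the same cluster, so signal of either probe may come from both genes.

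Each array set a Cy3-labelled sample against 1 Cy5-labelled pool of all samples, and values are log2(Cy3/Cy5) after loess normalization within the array, with no dye swap. Positive values mean more transcript in the sample than in the pool, and positive differences between diets mean higher in HF-low-suf. For nearly all genes in the study's own lists the diet differences found here have the opposite sign. With the sign turned to that of the lists, every diet difference below changes sign and higher and lower exchange places in each count, so the direction of the diet differences is in doubt. The Cy3 signal of the sample had a median of 3.77 to 7.22 times its background on the 24 arrays, and 26.1% to 71.9% of probes passed the scanner software's test for being well above background. On 2 arrays, colon HF-low-suf replicate 5 (mouse 73) and liver HF-low-suf replicate 4 (mouse 65), the Cy5 signal was 18.2 and 12.7 times the background, against 5.43 to 7.62 times on the other 22. Replicate numbers followed the 6 slides, each of which held liver and colon of 1 mouse per diet. The tissue labels held, since the 5 hepatocyte markers measured were all higher in liver and the 7 colon epithelium markers were all higher in colon, with log2 differences, liver minus colon, of 6.22 ± 0.13 (SE) for Cps1 and -7.29 ± 0.11 for Lgals4. A sample in Cy5 would give these markers the opposite signs, so the Cy3 channel held the sample, as the labels state.

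Detection differed among the members. Ifit1, Ifit3, Oasl2, Rsad2 and Usp18 passed that test on all 24 arrays and Irf7 on all but 1 liver array. Ifit2 was well above background on 3 of 12 liver and 5 of 12 colon arrays, and Ifi44 on 6 and 2, with 0 of 6 for Ifi44 in colon HF-low-low, so values of those genes are near the limit of measurement. No member was saturated. The second and later probes were dimmer, from 0 of 12 liver arrays well above background for Ifit2 to 7 of 12 for Ifit3.

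**Figure D1:**
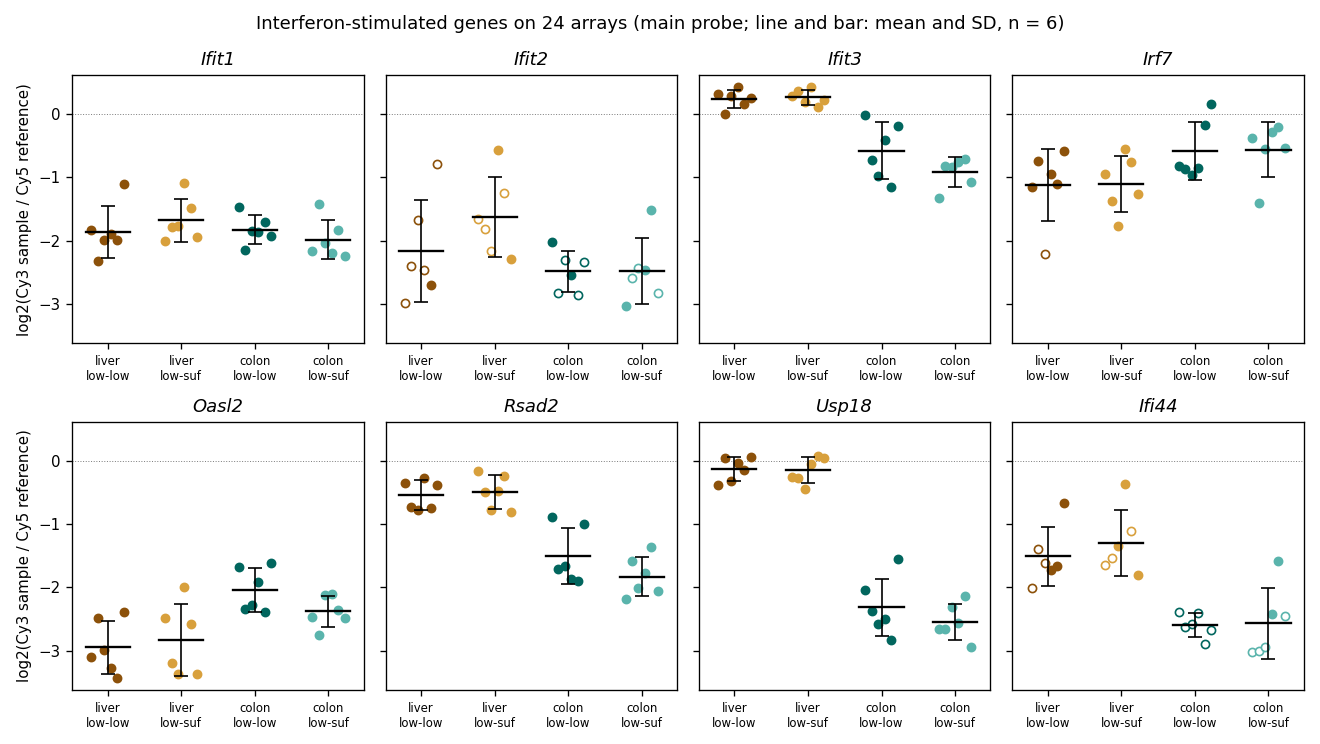
Log2 ratio of sample to reference pool (y axis) for the main probe of each gene on every array, by tissue and diet (x axis), with filled points well above background in Cy3, open points not, and mean and SD over 6 mice. The liver and colon points of Ifit3, Rsad2 and Usp18 do not overlap, while the diets overlap in both tissues for every gene.

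Most of these transcripts differed between liver and colon. Relative to the pool, 4 members, Usp18, Ifi44, Rsad2 and Ifit3, were higher in liver and 1, Oasl2, was lower, at an adjusted p below 0.05 and a fold change above 1.5 (limma over all 24 arrays, mouse as a random block, Benjamini-Hochberg over all probes). Over all probes 11.4% were called higher in liver and 12.2% lower by the same rule. At that adjusted p alone 7 of the 8 members passed, all but Ifit1, as did 38.3% of all probes. Many of all probes are dim. The fit was repeated on the 20138 probes well above background on at least 6 arrays, all 8 members among them. There 14215 probes passed that adjusted p, and 4147 were called higher in liver and 4696 lower. The median difference of the members, liver minus colon, was 0.79 log2 units (0.40 under median centring), and that of all probes was 0.02.

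Usp18, a protease that removes ISG15 from proteins and damps signalling at the type I receptor, differed most. Its log2 ratio in liver ran from -0.38 to 0.06 (median -0.08) on HF-low-low and from -0.44 to 0.08 (median -0.16) on HF-low-suf. In colon it ran from -2.83 to -1.55 (median -2.44) and from -2.93 to -2.14 (median -2.60). All 12 livers lay above all 12 colons, and the difference of 2.29 ± 0.11 log2 units (SE), a 4.89-fold higher ratio in liver, had an adjusted p of 1.96e-15 in limma.

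Among the effectors, Rsad2 (viperin, a radical SAM enzyme that makes a chain-terminating nucleotide) and Ifit3 (a tetratricopeptide partner of IFIT1) also separated the tissues without overlap. Rsad2 ran from -0.77 to -0.27 in liver HF-low-low (median -0.56) and from -0.82 to -0.16 in liver HF-low-suf (median -0.48). In colon Rsad2 ran from -1.89 to -0.89 (median -1.69) and from -2.18 to -1.37 (median -1.89). The lowest liver was thus only slightly above the highest colon, yet liver was higher in 12 of 12 mice, by 1.15 ± 0.12 log2 units (2.22-fold, adjusted p = 6e-09 in limma; 0.71 log2 units under median centring). The probes of Rsad2 that bridge introns, well above background on 4 and 6 of 12 liver and 3 and 3 of 12 colon arrays, were each higher in liver in 11 of 12 mice. Ifit3 ran from 0.01 to 0.42 (median 0.27) in liver HF-low-low and from 0.10 to 0.43 (median 0.25) in liver HF-low-suf. In colon Ifit3 ran from -1.16 to -0.02 (median -0.57) and from -1.32 to -0.71 (median -0.83). The livers were closely grouped and the colons spread widely, and the difference was 1.003 ± 0.10 log2 units (2.004-fold, adjusted p = 6.44e-09 in limma). The second Ifit3 probe, well above background on 7 of 12 liver and 6 of 12 colon arrays, gave 1.73-fold in the same direction with overlapping tissues. Every liver lay above every colon in 3 of the 8 members and in 5.97% of all probes, and every liver below every colon in 0 members and 6.49% of probes. With each array's ratios centred on their median in place of loess, the difference of Ifit3 was 0.58 and fell short of the fold threshold.

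Ifi44, a cytoplasmic protein of less settled function, was higher in liver in 12 of 12 mice, by 1.18 ± 0.16 log2 units (adjusted p = 7.44e-07 in limma). As it was well above background on 6 of 12 liver and 2 of 12 colon arrays, the size of this difference is uncertain, and under median centring it was 0.74. Its range was -2.01 to -0.66 (median -1.64) and -1.80 to -0.36 (median -1.44) in the livers of HF-low-low and HF-low-suf mice, and -2.90 to -2.39 (median -2.60) and -3.02 to -1.58 (median -2.69) in the colons. The ranges of the tissues overlapped through 1 colon, HF-low-suf replicate 5, the array with the brightest reference channel.

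Oasl2, a ubiquitin-like protein of the oligoadenylate synthetase family, ran the other way. It lay between -3.43 and -2.39 (median -3.04) and between -3.37 and -2.0 (median -2.88) in the livers of the HF-low-low and HF-low-suf mice. In the colons it lay between -2.39 and -1.61 (median -2.10) and between -2.76 and -2.10 (median -2.41). Liver was lower in 11 of 12 mice with overlapping ranges, and the log2 difference was -0.68 ± 0.15 (SE), a 1.60-fold lower ratio (adjusted p = 0.00038 in limma). It was -1.11 under median centring and -1.05 with the signals processed by the scanner software.

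The remaining 3 members were not called. Irf7, the transcription factor that drives further interferon production, ran from -2.20 to -0.56 over the 12 livers and from -1.40 to 0.15 over the 12 colons. Its log2 difference was -0.54 ± 0.16 (SE), lower in liver in 10 of 12 mice, with an adjusted p of 0.00922 in limma and a 1.45-fold lower ratio under the fold threshold. Without HF-low-low replicate 2 or HF-low-suf replicate 2 it was -0.61 or -0.60 and called. It was also called under plain background subtraction (-0.60), with the signals processed by the scanner software (-0.74) and under median centring (-0.96), so the call of Irf7 depends on the processing.

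Ifit2, a tetratricopeptide protein of the same family as Ifit3, ran from -2.99 to -0.57 in liver and from -3.03 to -1.52 in colon. Its log2 difference was 0.58 ± 0.21 (SE; 1.498-fold, adjusted p = 0.025 in limma), just under the fold threshold, and liver was higher in 11 of 12 mice. Without any 1 of HF-low-low replicates 1, 4 and 5 or HF-low-suf replicates 2, 3, 5 and 6 it was 0.59 to 0.71 and called. Without HF-low-low replicate 3 or 6 or HF-low-suf replicate 1 or 4 it was 0.46 to 0.55 and no longer passed an adjusted p of 0.05. With other background corrections or median centring it was 0.07 to 0.24 and did not pass, with an adjusted p of up to 0.831 in limma. Ifit1, which binds RNA that lacks the methyl mark of host caps, ran from -2.33 to -1.09 in liver and from -2.25 to -1.42 in colon. Its log2 difference was 0.14 with a 95% confidence interval of -0.11 to 0.39, and liver was higher in 6 of 12 mice and lower in 6.

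**Figure D2:**
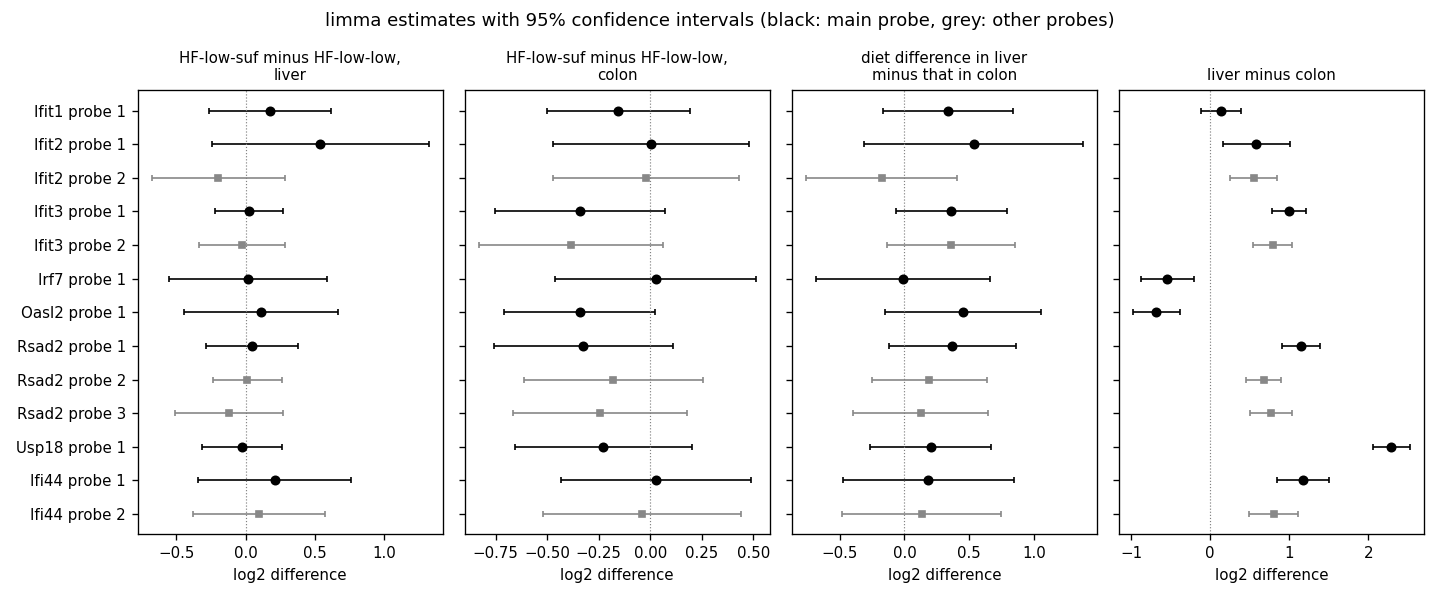
Log2 differences with 95% confidence intervals (x axes, which differ between panels) for all 13 probes of the 8 genes (y axis), with the main probe in black. Intervals of every probe include 0 for the diets and for their difference between tissues, while 10 of the 13 probes lie wholly above 0 and 2 wholly below it for liver minus colon.

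The other genes of the pathway, taken from lists of known function, differed between tissues in both directions. Of 31 other type I interferon-stimulated genes on the array, 13 were called higher in liver, 5 lower and 13 neither, with a median of 0.47. The largest difference among them was that of Bst2 (tetherin), which was 3.30 ± 0.10 (SE) higher in liver. Isg15, the modifier that USP18 removes, was 1.59 higher, Rtp4 1.68 higher and Mx2, well above background on 3 of 12 colon arrays, 1.85 higher. Among those lower in liver, Ifi27 had a difference of -1.37, Isg20 of -0.79, Oas1a of -0.65 and Epsti1, well above background on 5 of 12 liver arrays, of -1.33. Of 15 genes best known as induced by interferon gamma, 9 were called higher in liver and 2 lower, with a median of 0.78. The GTPases Iigp1 and Igtp were 4.66 and 2.20 higher in liver and the chemokines Cxcl9 and Cxcl10, well above background on 3 and 6 of 12 colon arrays, 1.90 and 1.58 higher, while Irf1 and Irf8 had differences of -1.41 and -1.71.

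Among 14 receptors and signal transducers, 4 were called higher in liver and 5 lower. Among those higher were Ifnar2, a chain of the type I receptor (2.32), and the transcription factors Stat2 (0.92) and Irf9, named Isgf3g on the array (1.32). Those lower were both chains of the interferon gamma receptor, Ifngr1 (-2.51) and Ifngr2 (-2.02), both chains of the interferon lambda receptor, Ifnlr1 and Il10rb (-2.08), and Jak2 (-0.93). Ifnlr1 cleared the background test in 12 of 12 colons and 0 of 12 livers, and its Cy3 signal was at least 3.15-fold higher in colon against the lowest signal well above background (adjusted p = 1.85e-07 in limma). Ifnar1, the other chain of the type I receptor, differed by 0.39 and was not called. Of 15 sensors and inducers 6 were called higher in liver, Dhx58 (1.61), Ddx58 (0.95), Mavs (1.04), Tlr9 (2.02), Irf5 (1.07) and Irf3 (0.73), and 1, Cgas, was lower by an uncertain amount, being well above background on 1 of 12 liver arrays. Of the 8 interferon genes measured only Ifna1 was called, higher in liver by an uncertain amount, being well above background on 6 of 12 liver and 2 of 12 colon arrays. Ifnb1 was well above background on 0 of 12 liver and 1 of 12 colon arrays.

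**Figure D3:**
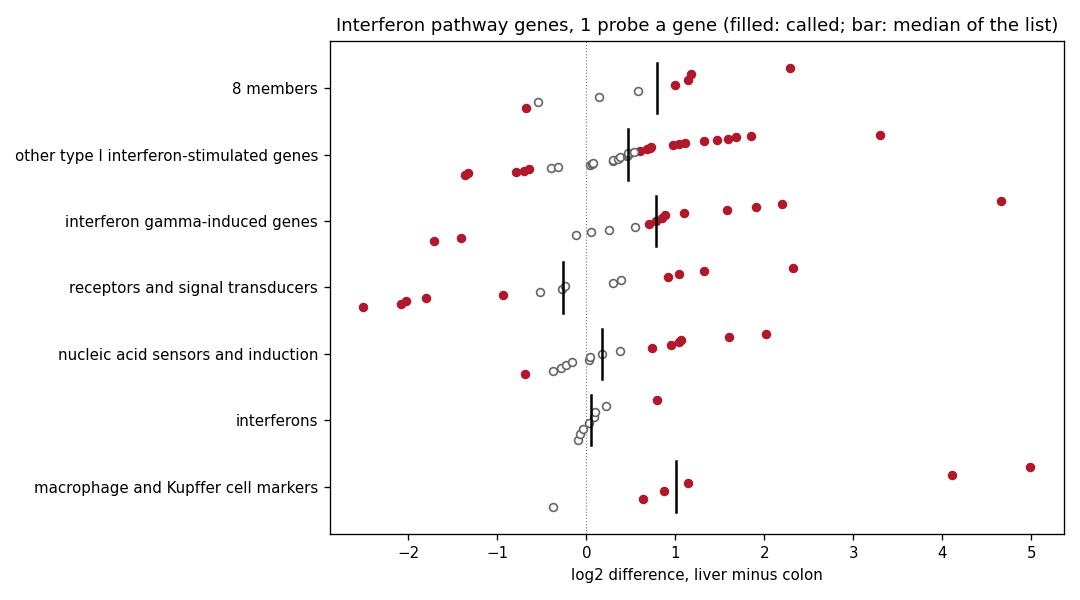
Log2 difference of liver minus colon (x axis) for 1 probe of each gene in the pathway lists and of the macrophage markers (y axis), with called genes filled and the median of each list as a bar. The members and the 2 lists of stimulated genes have medians above 0 (0.79, 0.47 and 0.78), with called genes on both sides.

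Among the markers of other cells, those of macrophages and Kupffer cells were most often called between the tissues. Of 6 macrophage and Kupffer cell markers 5 were called higher in liver, with Marco, well above background on 5 of 12 colon arrays, 4.11 higher. Clec4f was higher by an uncertain amount, being well above background on 12 of 12 liver and 1 of 12 colon arrays. The mean log2 ratio of the 6 per array ran from 0.43 to 2.34 in the livers and from -1.05 to -0.15 in the colons. Of 4 general leukocyte markers 0 were called (limma, lowest adjusted p = 0.109), with array means from -0.82 to 0.74 in liver and from -0.86 to 0.08 in colon. Called higher in liver were 2 of 5 T and NK cell markers, Cd3e and Gzma, of which Gzma was well above background on 0 of 24 arrays, and 2 of 4 B cell markers. Of 4 plasmacytoid dendritic cell markers 1, Bst2, which is also on the list of stimulated genes, was higher and 1, Tcf4, lower. Another of the 4, Siglech, was well above background on 0 of 24 arrays. The part of these cells in the tissue differences was not tested, and in whole tissue a change in the share of a cell type and a change in RNA per cell cannot be told apart.

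Some members were below the pool in both tissues. Oasl2 and Ifit1 had log2 ratios under -1 on all 24 arrays, as 0.746% of all probes did. The reference is labelled as a pool of colon and liver RNA of all mice, and elsewhere in the record as a pool of intestine and liver. With no dye swap, a difference between dyes and a difference between sample and pool cannot be told apart, and the comparisons between groups do not use this level.

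No member was called for diet in either tissue. By the rule of an unadjusted p below 0.01 with a fold change above 1.5, 0 of 8 were called in liver and 0 of 8 in colon, where 0.117% and 0.168% of all probes were. At an unadjusted p under 0.05 limma gave 0 of 8 in each tissue, where 1.17% of probes were higher and 0.957% lower on HF-low-suf in liver and 2.11% higher and 0.872% lower in colon. No probe of the array passed an adjusted p of 0.05 in either tissue, with 877 in liver and 1228 in colon at the unadjusted level.

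In liver 7 of 8 members had a higher mean on HF-low-suf, as 51.4% of all probes did (1 of 8 and 48.6% with the sign turned). That number was 4 of 8 without HF-low-suf replicate 4, the liver array with the bright Cy5 signal, and 3 of 8 with the Cy3 channel alone. The log2 differences, HF-low-suf minus HF-low-low, ran from -0.03 for Usp18 to 0.54 for Ifit2, with a median of 0.08 against 0.01 for all probes. That median of the members was 0.007 without HF-low-suf replicate 4, 0.172 without HF-low-suf replicate 3 and -0.007 with the Cy3 channel alone. The tightest estimates were those of Ifit3 (0.02, 95% confidence interval -0.22 to 0.27) and Usp18 (-0.03, -0.31 to 0.26). Ifit2 rested on 3 arrays well above background and had an interval of -0.25 to 1.32, with an exact permutation p of 0.223 over 924 assignments of the mice. It ran from 0.33 without HF-low-suf replicate 4 to 0.81 without HF-low-low replicate 6, where limma gave an unadjusted p of 0.0193 and an adjusted p of 0.998. The HF-low-suf mean of Ifit2 was -1.63 ± 0.64 (SD, n = 6) and the HF-low-low mean -2.17 ± 0.81, so the difference was smaller than the spread within either diet.

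In colon 5 members had lower means and 3 had means higher by 0.03 or less on HF-low-suf, where 48.3% of all probes had higher means (with the sign turned 5 of 8 and 51.7% higher), with a median difference of -0.19 against -0.01 for all probes. Without HF-low-suf replicate 5, the colon array with the bright Cy5 signal, 8 of 8 had lower means, and under median centring the median was -0.03. The lowest differences were those of Oasl2 (-0.34, 95% confidence interval -0.71 to 0.03), Ifit3 (-0.34, -0.75 to 0.07) and Rsad2 (-0.32, -0.76 to 0.11). Exact two-sided permutation tests over 924 assignments gave p = 0.0887, 0.132 and 0.182 for these, and limma an adjusted p of 0.9999 for each. The colon ranges given above overlap, with the 2 highest values of Ifit3 and Rsad2 in HF-low-low replicates 1 and 6.

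The test of the diet difference between tissues passed for no member. Liver minus colon, the difference was above 0 for 7 of 8 members, where 54.9% of all probes were, with a median of 0.35 against 0.03. With the sign of the diets turned it was above 0 for 1 of 8, and both medians change sign. It ran from -0.01 (Irf7) to 0.53 (Ifit2), with a lowest unadjusted p of 0.0928 for Ifit3 and a lowest adjusted p of 0.818 (limma). At an unadjusted p below 0.05 there were 0 of 8 members and 6.43% of all probes, and at an adjusted p below 0.05 0% of probes. Beside the members, 0 of the 83 listed interferon, receptor, sensor and stimulated genes measured passed the diet rule in liver or in colon.

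Over the 12 mice liver and colon of the same mouse agreed weakly, at about the level of all probes. Pearson r over the 12 mice was above 0 for 7 of 8 members, where 66.2% of all complete probes were above 0, with a median of 0.19 against 0.14. With other background corrections or the scanner software's signals r was above 0 for 5 of 8, with a median of 0.09 to 0.13 against 0.11 to 0.13 for all probes. Under median centring it was above 0 for 8 of 8 and 83.2% of probes, with a median of 0.39 against 0.33. After loess r ran from -0.03 for Ifit1 to 0.51 for Irf7. At an unadjusted permutation p below 0.05 there were 0 of 8 members, against 6.02% of 36748 probes with a positive r at that level. It was also 0 of 8 under plain background subtraction (4.8% of probes), without background correction (5.09%) and with the scanner software's signals (5.89%), and 1 of 8, Irf7, under median centring, where 17.9% of probes passed. No probe of the array passed an adjusted p of 0.05, the lowest adjusted p being 0.184.

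Among the main probes Irf7 had the highest agreement. Mouse 53 had the highest Irf7 in colon (0.15) and the second highest in liver (-0.58), and mouse 49 had the lowest in liver (-2.20) with a low colon (-0.96). Pearson r was 0.51 (p = 0.0893 by 100000 permutations, adjusted p = 0.709 over all probes) and Spearman rho was 0.57 (permutation p = 0.0601). Without the 2 mice farthest from the liver median r was 0.63, and over all alternatives it ran from 0.40 to 0.91. Within the diets r was 0.50 (exact p = 0.324) on HF-low-low and 0.54 (exact p = 0.289) on HF-low-suf. Between the differences of the diets within the 6 slides r was 0.91 (exact p = 0.0264). Liver and colon of a mouse always shared a slide, and these differences take out what the arrays of a slide had in common. Irf7 was the only 1 of the 8 main probes with an unadjusted p below 0.05 in them, where 2.56% of all complete probes had a positive r at that level, and the lowest adjusted p of the array was 0.709. Within slides r was above 0 for 8 of 8 main probes and 50.7% of all complete probes, with a median of 0.32 against 0.01. It ran from 0.05 (Ifi44) to 0.91 (Irf7). The members varied together in part within a tissue, so these 8 signs are not separate results.

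Rsad2 had r = 0.32 (permutation p = 0.310, adjusted p = 0.820) and rho = 0.28 (permutation p = 0.376) for its main probe, 0.53 for the second and 0.15 for the third. Without HF-low-suf replicate 1, which had the highest liver value (-0.16) and the lowest colon value (-2.18), r was 0.63 (permutation p = 0.0411). The main probes of the remaining 6 members had r from -0.03 to 0.24 and rho from -0.10 to 0.30, with permutation p of at least 0.340 for either measure. The second probe of Ifit2, well above background on 0 of 12 liver and 1 of 12 colon arrays, had r = 0.56 (permutation p = 0.0586, adjusted p = 0.680), rho = 0.42 (permutation p = 0.176) and r = 0.82 within slides (exact p = 0.0472). That of Ifi44, well above background on 2 and 1 of 12, had r = 0.35 (permutation p = 0.264, adjusted p = 0.801) and rho = 0.40 (permutation p = 0.202). Without the 2 mice farthest from the liver median the r of the 6 main probes ran from -0.16 (Oasl2) to 0.47 (Usp18).

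**Figure D4:**
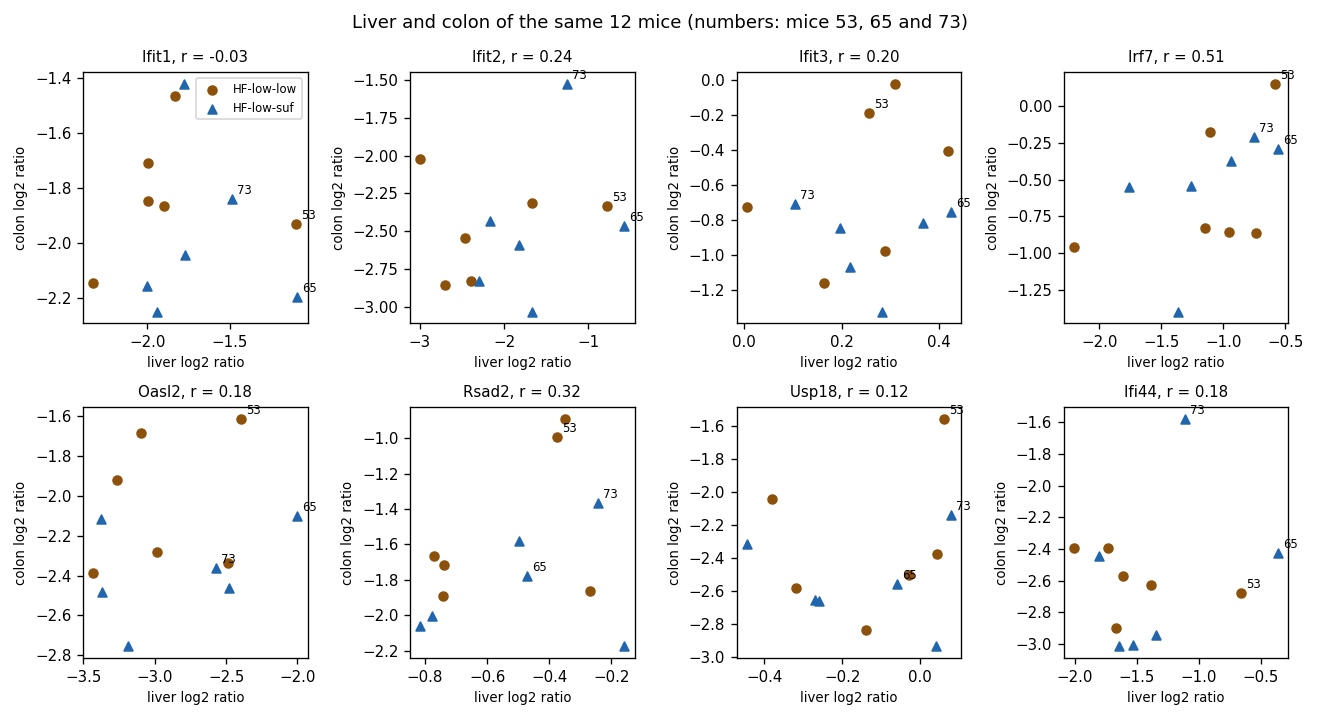
Log2 ratio in liver (x axis) and colon (y axis) of the 12 mice for the main probe of each gene, by diet, with mice 53, 65 and 73 numbered. Points scatter widely for most genes, and the highest r is that of Irf7 (0.51).

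Within a tissue the members varied together in part. Over the 12 livers 9 of 28 pairs of members had r above 0.5, where 12.8% of pairs of probes that cleared the background test on 6 or more arrays did, and the median r was 0.39. The highest were Ifit2 with Ifi44 (0.88), Ifit1 with Ifi44 (0.81) and Ifit1 with Ifit2 (0.78), and Ifit2 and Ifi44 are the dim members. Over the 12 colons 11 of 28 pairs were above 0.5, where 12.3% of pairs were, with a median of 0.37. There the highest were Ifit3 with Rsad2 (0.84), Ifit3 with Oasl2 (0.81), Rsad2 with Usp18 (0.80) and Ifit3 with Usp18 (0.79). Ifit3 with Usp18 had -0.28 in liver. Points of 1 tissue share slides, depth and the pool, and the values are descriptions.

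**Figure D5:**
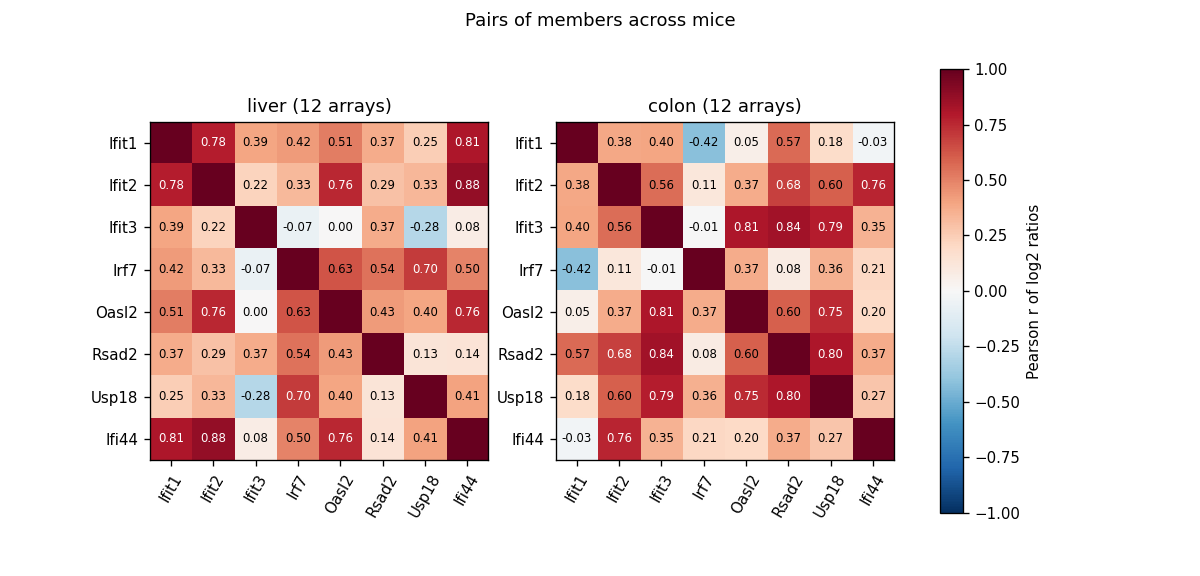
Pearson r of the log2 ratios of each pair of members over 12 liver arrays and over 12 colon arrays (colour scale from -1 to 1). Ifit1, Ifit2, Oasl2 and Ifi44 make up high pairs in liver, with r up to 0.88, and Ifit3, Oasl2, Rsad2 and Usp18 in colon, with r up to 0.84.

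Several members had high values in the same mice, which are named here for that reason. In mouse 53 (HF-low-low, slide 6) 6 of 8 members were among the 3 highest of the 12 livers and 5 of 8 among the 3 highest of the 12 colons, whereas the other mouse on that slide, mouse 74, had 0 in either. Mouse 73 (HF-low-suf) had 5 of 8 in each tissue and mouse 65 (HF-low-suf) had 6 of 8 in liver and 0 in colon, and the colon array of the first and the liver array of the second were those with the bright Cy5 signal. Mouse 55 (HF-low-low) had 7 of 8 in colon and 0 in liver. The share of all probes among the 3 highest on these arrays was not counted. Neither a shift of the whole array nor the part of the bright channel in these values was tested.

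The spread between mice of 1 diet also differed by gene and tissue. Ifit3 had a within-diet SD of 0.13 in liver, where 3.40% of brighter probes (those that cleared the background test on 6 or more arrays) had a smaller one, and 0.36 in colon. Usp18 had 0.20 in liver and 0.38 in colon. Irf7 varied in both, with an SD of 0.51 and 0.45. The median SD of brighter probes was 0.29 in liver and 0.28 in colon.

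Of the genes most like the mean of the standardized members over the mice, those with the highest r in liver were Slc5a10 (0.96), Atp11a (0.94), Casp1 (0.94), Birc1e (0.93) and Bmp2 (0.93), followed by Mta3, Atp7a, Tmem144 and Rnf4 (0.92 to 0.93), among 14022 named probes. In colon they were Clcn5 (0.89), Atf6 (0.89), Gpatc3 (0.88) and Eif2ak2 (0.85), followed by 1110018F16Rik, Bdh2, Dennd1a, Zbtb22, 3830406C13Rik and Wdr35 (0.81 to 0.85), among 16912. Eif2ak2, the kinase PKR, was the only 1 of these genes on a list of interferon-related genes. The likeness is over 12 arrays of 1 tissue and carries no test.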

How the data were processed

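The deposited files hold the scanner output of 24 two-colour arrays, and the spot intensities in them are those that Feature Extraction 9.5.3.1 wrote per the file headers, with positions on build mm7. According to the methods, the authors normalized them with limma, and their gene lists came from a p below 0.01 with a fold change above 1.5. The methods do not state whether that p was adjusted, and the rule used here for diet takes it as unadjusted. Mean foreground and median background signals were corrected by normexp (offset 50) and loess-normalized within arrays, with 1639 control spots of 45018 given no weight, outlier spots were dropped, and spots of a probe were averaged (R 4.3.3, limma 3.58.1, statmod 1.5.0). The resulting ratio of sample to pool is given as log2.

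Groups came from the sample labels. Diets were compared within tissue over 12 arrays, and tissues and the difference between diet effects over 24 arrays with mouse as a random block (correlation 0.158). Benjamini-Hochberg adjustment ran over all 41174 probes. Single probes were also tested exactly over the 924 assignments of mice to diets or the 4096 sign patterns, and the agreement of tissues by 100000 permutations or, within a diet or slide, all 720 orders. All tests were two-sided and the replicates are separate mice. Array number limits the precision.

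Members and lists were chosen with earlier results of these data known. Named beyond the members were, in the pathway lists, genes called between tissues, and the 10 named probes per tissue most like the members' mean. Of the genes this rule gives, 2 are not reported here. Ifnar1 and Ifnb1, which were not called, were named for their role after their values were seen. On simulated data with 200 probes changed by 2 log2 units, the diet fits recovered 100% (liver) and 99.5% (colon) on 41174 probes, and the tissue and difference fits 100% and 94% on 5000. They also called 222 (liver), 250 (colon), 2 and 11 unchanged probes, and the counts for diet exceed the 48 and 69 probes called in the data. The slide carries the replicate number: deviations of same-numbered samples correlated from -0.57 to 0.65 in liver (2 of 6 above 0.1) and from -0.35 to 0.45 in colon (4 of 6), so the number was not used as a block. Alternatives covered background correction, normalization, channel, outlier spots, a filter on dim probes, blocks, other probes and each replicate left out, and, chosen after seeing the data, leaving out the arrays with Cy5 over 10 times background.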

Additional observations from a re-analysis of the deposited data

Results flagged for a closer look

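Of the 32 sets of 6 values formed by the 8 main probes in 4 groups, 2 held a value far from the others by Dixon's criterion at its 95% critical value, and chance alone gives about 1 in 20. In liver HF-low-low replicate 3 (mouse 49) the log2 ratio of Irf7 was -2.20, the nearest of the other 5 was -1.15, the gap was 0.65 of the range, and the spot was not well above background in Cy3. In colon HF-low-suf replicate 2 (mouse 71) it was -1.40, with the nearest at -0.55 and a gap of 0.71 of the range.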

How the results depend on the processing

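The count of members called for diet was 0 in liver and 0 in colon under every alternative run, and so was that for the difference between diet effects, also with each replicate left out (0 to 0). Leaving out single mice gave 5 to 7 members called between tissues. With the replicate block the counts were 0 in liver, 0 in colon, 0 for the difference between diet effects, 5 between tissues (5 also with no replicate block) and 1 for agreement of tissues, where Irf7 had r = 0.91 and Ifit1 0.40 within slides; the slide block changed no other call. Agreement also gave 1 member under median centring (Irf7, r = 0.75, permutation p = 0.00516), where 17.9% of all complete probes passed against 6.02%, and without HF-low-suf replicate 1 (Rsad2, r = 0.63), and 0 to 1 over single mice left out. Of the member values under an alternative, 867 kept direction and side of the threshold, 83 changed sign, 15 newly passed and 1 no longer passed (Ifit3, 0.58 under median centring), and no value that was called changed sign. Of the diet differences in liver, plain subtraction turned Irf7 to -0.013, no background correction Irf7 to -0.027, Feature Extraction signals Oasl2 to -0.017 and Rsad2 to -0.00089, median centring Usp18 to 0.053, Cy3 alone Ifit3 to -0.010, Irf7 to -0.044, Oasl2 to -0.017 and Rsad2 to -0.0037, and leaving out the bright array Ifit3 to -0.0074, Irf7 to -0.096 and Oasl2 to -0.055. The other probes gave -0.20 (Ifit2, well above background on 0 of 12 liver arrays), -0.025 (Ifit3) and -0.12 (Rsad2, probe 3). Over single replicates left out the liver values ran from -0.20 to 0.15 (Irf7), -0.021 to 0.11 (Rsad2), -0.022 to 0.060 (Ifit3), -0.076 to 0.033 (Usp18) and -0.055 to 0.22 (Oasl2). In colon, median centring turned Ifit1 to 0.016, Cy3 alone Ifi44 to -0.034, leaving out the bright array Ifi44 to -0.17, Ifit2 to -0.19 and Irf7 to -0.044, and the second probes gave -0.038 (Ifi44) and -0.022 (Ifit2), while single replicates left out gave -0.048 to 0.19 (Irf7), -0.19 to 0.11 (Ifit2) and -0.17 to 0.12 (Ifi44). The difference between diet effects turned to -0.037 (Ifi44) and 0.018 (Irf7) with Feature Extraction signals and to -0.18 with the second Ifit2 probe, and ran from -0.15 to 0.12 for Irf7 over single mice left out. The tissue difference of Ifit1 turned to -0.29 under median centring and to -0.063 with Feature Extraction signals, which moved the median of all probes to -0.19, and median centring gave 29.2% of tissue calls as higher in liver, against 48.3%. Irf7 passed the tissue rule under plain subtraction (-0.60), Feature Extraction (-0.74) and median centring (-0.96). The r of agreement turned, under plain subtraction, to 0.13 (Ifit1), -0.36 (Ifit2), -0.15 (Oasl2) and -0.43 (Ifi44), without background correction to 0.11, -0.23, -0.15 and -0.44 for the same genes, and with Feature Extraction signals to 0.026, -0.093, -0.12 and -0.35. It turned for Ifit1 to 0.17 under median centring, 0.065 from Cy3 alone, 0.047 centred within diet, 0.070 as Spearman rho and 0.20 without both arrays of bright Cy5 signal, for Ifi44 to -0.29 without those arrays and -0.10 as rho, and for Usp18 to -0.0070 from Cy3 alone, and over single mice left out it ran from -0.19 to 0.21 (Ifit1) and -0.19 to 0.29 (Usp18). The cause was not tested. Over all probes, calls for diet in liver were 48 against 144 with all arrays in one fit, 131 with the slide block, 21 from Cy3 alone, 12 without background correction, 2 with median centring, 2 with the filter on dim probes and 9 to 304 with single mice left out, and 83.3% were higher on HF-low-suf against 34.5% under plain subtraction, 61.4% with Feature Extraction signals, 66.7% from Cy3 alone and 58.3% without the array of bright Cy5 signal. With the sign of the diets turned the main shares are 16.7% here and 4.35% in colon. In colon they were 69 against 13 without background correction, 26 with median centring, 113 with scan day as a block, 42 without the bright array, 3 with the filter and 23 to 257, and 95.7% were higher against 79.2% with Feature Extraction signals and 80.8% with median centring. Aquantile scaling leaves ratios as they are. Values of Ifit2 and Ifi44, mostly not well above background, are the least certain.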
